A study of Mus musculus with 1824 samples.

Results

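The data described here are the single-cell transcriptomes of 2 plates of E8.5 (embryonic day 8.5) mouse cells, plate 5 and plate 6. Every well with at least 100000 total reads was taken as a cell, which gave 77 of 96 wells on plate 5 and 92 of 96 wells on plate 6. These 169 cells are part of 1649 cells that passed the same limit on the 19 plates of the series. The study followed the haemato-endothelial lineage in chimaeric embryos, in which embryonic stem cells lacking *Tet1*, *Tet2* and *Tet3* (*Tet*-TKO) and labelled with H2B-tdTomato were injected into C57BL/6J blastocysts that were then carried by CD1 females. Embryos were pooled and dissociated, and live singlets were sorted by the surface proteins CD41 and KDR, with tdTomato+ (*Tet*-TKO) and tdTomato- (wild type host) cells both collected. The gates held CD41+KDR- cells, CD41-KDR+ cells, CD41+KDR+ cells, which the study called blood progenitors, and cells negative for both. The labels of both plates give the same strain (CD1), stage and tissue (E8.5 embryo), and a plate and well for each cell, but no gate, genotype, embryo or sort day. Plate, gate, genotype and embryo therefore cannot be told apart here, and each plate counts as 1 sample. No test was made between the plates, and all intervals below are 95% intervals that cover counting error only, since amplified reads without molecular identifiers are not independent molecules.

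At this stage the yolk sac makes the first blood. Endothelial cells with blood-forming capacity switch on *Runx1* and the integrin *Itga2b* (which encodes CD41) while they lose the endothelial receptor *Kdr*, and progenitors that leave the vessel wall give rise to megakaryocytes, which shed platelets, to early myeloid cells and to erythrocytes. *Gfi1b* encodes a transcriptional repressor of the erythroid and megakaryocyte branches and *Pf4* a chemokine stored in platelet granules, so these genes, together with the ETS factor gene *Spi1* on the myeloid side, are commonly used to place cells along the branches.

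The reads of a cell ranged from 114844 to 2640642 on plate 5 (median 470620) and from 120842 to 2689315 on plate 6 (median 594522). The summed depth was 42934862 reads on plate 5 and 62420836 on plate 6. Mitochondrial genes held 1.24% and 1.23% of reads and ribosomal protein genes 8.35% and 8.27%, and the median number of genes per cell, after thinning each cell to 100000 reads, was 6248 and 6661. A group of transcripts set the plates apart in most cells. *Rps3a3*, a ribosomal protein pseudogene on chromosome 13 inside *Pde4d*, had 3.82 CPM (counts per 1000000 reads) on plate 5 and 999 CPM on plate 6, and the same contrast was seen across all E8.5 plates, with 3.82 to 8.81 CPM on plates 1, 3, 5 and 7 and 736 to 999 CPM on plates 2, 4, 6 and 8. A read of *Xist* or of the Y-linked genes *Ddx3y*, *Eif2s3y* or *Kdm5d* was found in 93.5% to 96.6% of thinned cells on the odd plates and in 10.99% to 21.7% on the even plates. The Y-linked gene *Uty* was not in this count and differed less, with a read in 23 of 77 plate 5 cells and 19 of 92 plate 6 cells. With *Uty* counted as well, 3 plate 5 cells (3.90%) and 60 plate 6 cells (65.2%) had no read of *Xist* or a Y gene. On plate 6, 2 cells went against the odd and even pattern by having no *Rps3a3* read after thinning. Where *Spi1*, *Csf1r*, *Btk*, the myeloid-like share or the myeloid member range rests on them, this is stated. How the plates' difference in these transcripts bears on the other results was not tested.

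Plate 5 was the richer in megakaryocyte, myeloid and haemoglobin transcripts, and plate 6 in endothelial, arterial and endoderm transcripts. With the reads of all cells of a plate summed, 9363 genes had at least 10 CPM on either plate. Of these, 579 (6.18%) had at least 2-fold the CPM on plate 5 and 1213 (13%) at least 2-fold on plate 6, and the median log2 ratio of plate 5 over plate 6 was -0.04. The study called genes at the same fold of 2, but together with a statistical test and a limit on the false discovery rate. No such test was run here. Calls are made on log2 ratios with a pseudocount of 1 CPM, whereas the folds below are plain ratios of CPM. Among the other 27 pairs of E8.5 plates, between 11.8% and 37.9% of genes passed the fold in either direction (median 28.2%), and 23 of these pairs had more than plates 5 and 6. Well columns 1 to 6 against columns 7 to 12 of the same plate gave 9.64% on plate 5 and 8.79% on plate 6, which is the spread between sets of cells from 1 plate.

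The megakaryocyte and myeloid lists lay on the plate 5 side. Of the 24 megakaryocyte members, 22 reached 10 CPM, 19 were past the fold on plate 5 and 0 on plate 6, with a median log2 ratio of 3.15. The myeloid list had 15 of 26 members above the minimum, 11 of them past the fold on plate 5 and 0 on plate 6 (median 4.64). The blood progenitor list was mixed, with 8 of 21 members higher on plate 5, 2 higher on plate 6 and 11 within the fold (median 0.83). It shares *Itga2b* and *Gfi1b* with the megakaryocyte list. The endothelial list ran the other way, with 17 of 20 members past the fold on plate 6, 0 on plate 5 and a median of -2.21. In a pooled sum, more cells of a type and more RNA per cell cannot be told apart, so the number of cells with a read is given beside the levels.

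**Figure D1:**
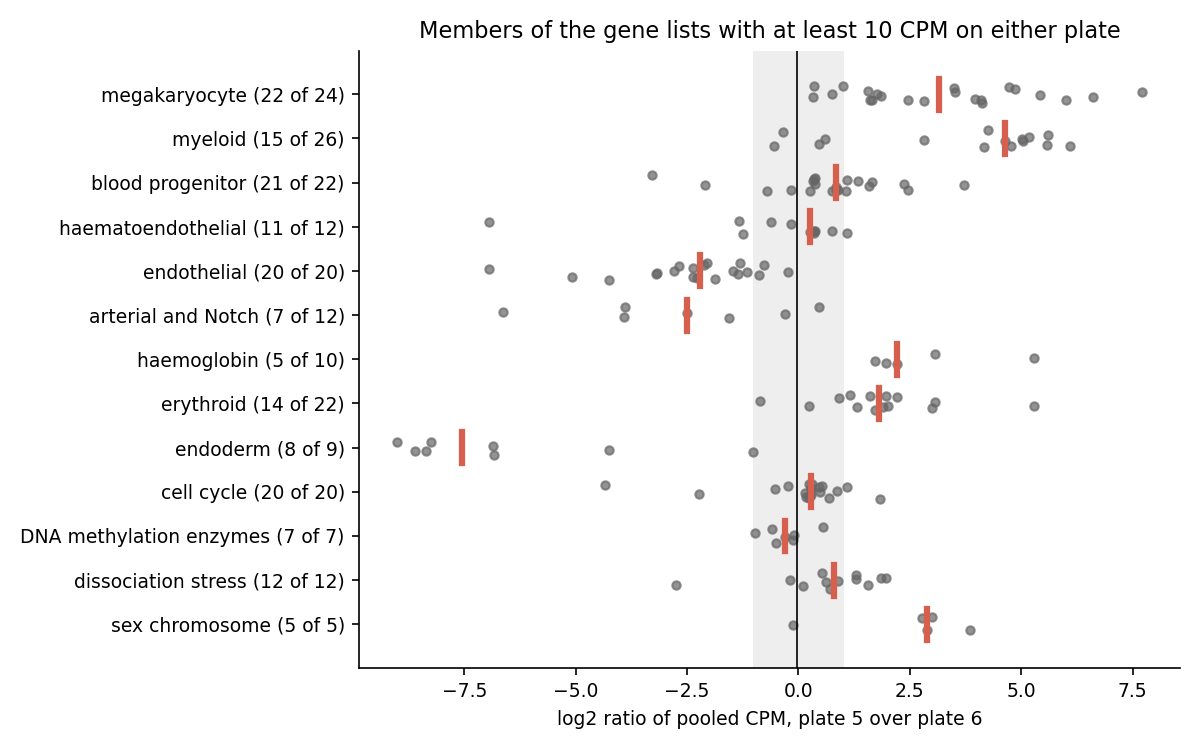
Each point is a list member with at least 10 CPM on either plate and gives the log2 ratio of pooled CPM, plate 5 over plate 6 (x axis), with lists in rows and the number of members shown of all members in parentheses. Red bars are list medians, the grey band is the range within a fold of 2 and the black line the median of all genes tested (-0.04). The megakaryocyte (3.15) and myeloid (4.64) medians lie right of the band, and the endothelial (-2.21) and endoderm (-7.54) medians left of it.

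The genes of the 2 sorted proteins were read in most cells of both plates. *Itga2b* (GRCm38, chr11:102453297-102470122) had 678 CPM (670 to 686) on plate 5 and 216 CPM (212 to 220) on plate 6, a ratio of 3.14 (3.07 to 3.20). Cells of plate 5 ranged from 0 to 2401 CPM with a median of 392, and those of plate 6 from 0 to 1899 with a median of 137, so the plates overlapped widely. *Kdr* (chr5:75932827-75978458), the gene of the VEGF receptor KDR, was 2.37-fold higher on plate 6, with 220 CPM (216 to 225) on plate 5 and 521 CPM (515 to 527) on plate 6. Its cells ranged from 4.58 to 870 CPM (median 197) on plate 5 and from 0 to 1793 CPM (median 412) on plate 6. After thinning, reads of both genes were found in 72 plate 5 cells (93.5%, 85.5 to 97.9) and in 74 plate 6 cells (80.4%, 70.9 to 87.97). *Itga2b* alone was read in 2 and 7 cells, *Kdr* alone in 3 and 9, and neither in 0 and 2. These counts describe RNA in sorted wells and do not give the gate of either plate.

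*Runx1* (chr16:92601466-92826149), the transcription factor gene required for blood to emerge from endothelium, was read in 75 of 77 thinned cells of plate 5 and 60 of 92 of plate 6. It had 218.7 CPM (214 to 223) on plate 5 against 86.1 CPM (83.8 to 88.4) on plate 6, a ratio of 2.54 (2.46 to 2.63). Cells ranged from 2.45 to 635 CPM (median 206) on plate 5 and from 0 to 615 (median 37.3) on plate 6. *Gfi1b* (chr2:28609450-28621982) had 394 CPM (388 to 400) on plate 5 and 70.5 CPM (68.5 to 72.7) on plate 6, 5.58-fold apart (5.40 to 5.77). Its median cell stood at 271 CPM on plate 5 and at 0 on plate 6, while the highest cells reached 1856 and 797 CPM. *Gfi1b* was also read in a smaller share of plate 6, with a read in 66 of 77 thinned cells of plate 5 and 25 of 92 of plate 6.

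*Pf4* (chr5:90772435-90773383) had the largest log2 ratio of the 4 (7.72). Its pooled level was 612 CPM (604 to 619) on plate 5 and 1.91 CPM (1.58 to 2.28) on plate 6, a ratio of 321 (267.99 to 387). The plate 5 level was uneven, with a median cell of 28.9 CPM, a highest cell of 18310 CPM, and 45 of 77 thinned cells with a read. That highest cell held 42.2% of the *Pf4* reads of plate 5, and the level without it was 359 CPM. On plate 6 the median cell was 0, the highest 124.5 CPM and 7 of 92 cells had a read.

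**Figure D2:**
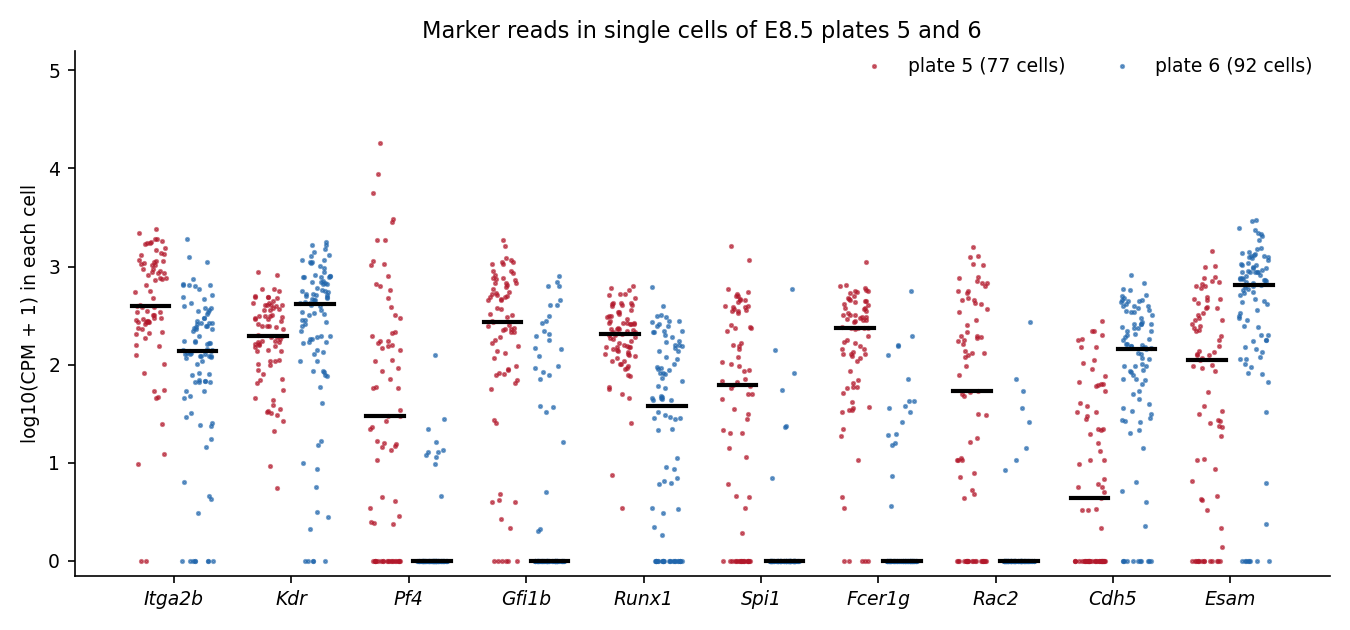
Each point is a cell and gives log10(CPM + 1) of a gene (y axis) for 10 genes (x axis), in red for the 77 cells of plate 5 and in blue for the 92 cells of plate 6, with black bars at the medians. *Itga2b* and *Kdr* overlap between the plates, *Pf4*, *Spi1* and *Rac2* have medians of 0 on plate 6, and *Cdh5* and *Esam* are higher on plate 6.

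Genes of platelet receptors, granules and the platelet cytoskeleton were mostly higher on plate 5, and no member of the megakaryocyte list was past the fold on plate 6. The collagen and von Willebrand factor receptor subunits *Gp9* (68.6 against 3.01 CPM), *Gp5* (132 against 4.05), *Gp1ba* (42.6 against 11.1) and *Gp6* (11.8 against 0.144) were each past the fold. *Treml1*, which encodes a receptor of platelet granules, had 131 CPM on plate 5 and 1.04 on plate 6 (125.4-fold, 98.2 to 163). *Tubb1*, the platelet beta-tubulin gene, had 158 and 2.71 CPM (58.3-fold, 50.1 to 68.4). *Thbs1*, which encodes the matrix protein thrombospondin of platelet alpha granules, had 622 and 5.38 CPM (116-fold, 104 to 129). In single cells *Treml1* ranged from 0 to 958 CPM on plate 5 (median 72.9) and from 0 to 95.3 on plate 6 (median 0), with reads in 45 and 4 thinned cells. *Thbs1* was read in 38 and 6 cells and reached 8204 CPM in a plate 5 cell, while the median plate 5 cell had 6.43 CPM.

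For the 4 list members with the largest ratio among those with at least 100 CPM on plate 5 (*Pf4*, *Thbs1*, *Treml1* and *Tubb1*), promoter stretches were looked up in RefSeq, and 3 were found (GRCm38.p6, plus strand). They are shown because these genes carry the plate difference in its clearest form. Each is the 250 bases before the gene start in RefSeq, 5′ to 3′, and capitals mark a match to the ETS motif AGGAAG on either strand.
Pf4 promoter, chr5:90772185-90772434: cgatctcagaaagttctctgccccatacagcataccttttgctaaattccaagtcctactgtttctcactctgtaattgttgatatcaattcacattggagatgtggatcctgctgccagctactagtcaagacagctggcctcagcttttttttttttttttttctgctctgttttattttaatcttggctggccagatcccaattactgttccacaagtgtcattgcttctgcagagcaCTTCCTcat
Treml1 promoter, chr17:48359666-48359915: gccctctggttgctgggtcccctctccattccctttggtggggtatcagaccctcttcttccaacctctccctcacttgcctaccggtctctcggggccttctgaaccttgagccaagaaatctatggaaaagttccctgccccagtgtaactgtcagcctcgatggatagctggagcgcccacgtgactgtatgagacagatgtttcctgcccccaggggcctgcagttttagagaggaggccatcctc
Tubb1 promoter, chr2:174450345-174450594: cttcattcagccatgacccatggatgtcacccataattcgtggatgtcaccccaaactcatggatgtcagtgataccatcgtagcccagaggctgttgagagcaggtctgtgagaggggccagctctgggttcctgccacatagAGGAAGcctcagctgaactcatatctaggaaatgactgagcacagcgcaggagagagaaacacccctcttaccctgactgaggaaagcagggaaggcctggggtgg

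The *Pf4* stretch held AGGAAG on the minus strand, at bases 9 to 4 before the start, and the *Tubb1* stretch on the plus strand, at bases 106 to 101. The start is that of RefSeq, and the GENCODE annotation used for gene positions starts *Tubb1* further downstream, at base 174450695. Of 32851 promoter stretches of this length in the RefSeq table, 29.5% held AGGAAG on either strand. The GATA motifs AGATAA and TGATAA (9.99% and 7.94% of all stretches) and the RUNX motif TGTGGT (14%) were not in these 3 windows. The matches describe letters and not binding.

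The other members of the list ranged from far past the fold to within it. *Plek*, which encodes pleckstrin, a protein kinase C substrate of platelets, had 710 and 40.4 CPM (17.6-fold, 16.9 to 18.3) and was read in 75 thinned cells of plate 5 and 26 of plate 6. *Itgb3*, the partner chain of CD41 in the fibrinogen receptor, had 541 and 76.2 CPM (7.10-fold, 6.89 to 7.33). *F2rl2*, a thrombin receptor gene, had 259 and 15.7 CPM. The granule trafficking gene *Rab27b* had 452 and 149 CPM (3.04-fold, 2.96 to 3.11) and was read in 63 of the 92 plate 6 cells. *Clec1b* was at the edge of the fold (179 and 88.7 CPM, ratio 2.02), and its call was lost under several alternatives. *Nfe2* (196 and 116 CPM), *Fli1* (228 and 180) and *Mmrn1* (99.8 and 79.7) did not pass the fold, and *Gp1bb* and *Selp* were below the minimum. The platelet chemokine gene *Ppbp* passed the fold (37.1 and 0.304 CPM), but 1 plate 5 cell held 80.4% of its reads there, and the level without that cell was 7.37 CPM. With the highest cell of each plate removed gene by gene, all 19 calls of the list remained.

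The 11 myeloid genes called on plate 5 held a transcription factor and genes of leukocyte receptors and signalling, while the granule protein genes were divided between called and not called. *Spi1*, which encodes the transcription factor PU.1, had 207 CPM (203 to 211) on plate 5 and 4.74 CPM (4.22 to 5.31) on plate 6, a ratio of 43.6 (38.9 to 49.2). Cells of plate 5 ranged from 0 to 1618 CPM with a median of 61.04 and 50 cells with a read after thinning. On plate 6 the median was 0 and 7 cells had a read, and 1 of the 2 cells without *Rps3a3* reads held 50.3% of the *Spi1* reads, at 590 CPM. Without those 2 cells, *Spi1* on plate 6 was 2.41 CPM.

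The receptor adaptor genes *Fcer1g* (238 and 11.5 CPM, 20.8-fold, 19.3 to 22.4) and *Tyrobp* (63.6 and 1.38 CPM) were higher on plate 5, as were the small GTPase gene *Rac2* (287 and 3.24 CPM, 88.6-fold, 77.1 to 102), the actin regulator gene *Coro1a* (426 and 23.02 CPM, 18.5-fold), *Laptm5* (348 and 48.7 CPM) and the Fc receptor gene *Fcgr3* (104 and 3.19 CPM). *Fcer1g* was read in 70 of 77 thinned cells of plate 5 and 15 of 92 of plate 6, which is wider than any single cluster described below. Other calls rested on few cells. *Csf1r*, the macrophage colony-stimulating factor receptor gene, had 62.1 and 0.945 CPM, but 1 cell held 56.2% of its plate 5 reads (28.8 CPM without it) and the plate 6 cell named above 96.6% of its plate 6 reads (0.0328 CPM without the 2 cells). *Ptprc*, the gene of the leukocyte antigen CD45, had 46.9 CPM on plate 5 and 0 reads on plate 6, at least 976-fold higher when 3 counts are set for the whole of plate 6 (exact lower limit 793). Of its plate 5 reads, 1 cell held 70.8%, and the level without that cell was 14.5 CPM. The protease gene *Prtn3* (60.6 and 0.272 CPM, 33.8 on plate 5 without its highest cell) and *Csf2rb* (41.6 and 0.304 CPM) complete the 11. All 11 calls remained with the highest cell of each plate removed gene by gene.

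*Mpo* (49.5 and 62.8 CPM) and *Lyz2* (70.7 and 104 CPM), which encode the granule enzymes myeloperoxidase and lysozyme, *Csf3r* (47.5 and 34.5 CPM) and *Lcp1* (75.4 and 49.6 CPM) were within the fold. *Mpo* was read in 31 plate 5 cells and 49 plate 6 cells after thinning, and *Lyz2* in 44 and 56. The macrophage and microglia genes *Cx3cr1* (0.862 and 0 CPM) and *Aif1* (0 and 0.0961 CPM) and the neutrophil gene *Elane* (0.466 and 0 CPM) were among the 11 members under the minimum. None of the 8 mast cell and basophil markers reached it, with a summed level of 3.40 CPM on plate 5 and 2.32 on plate 6.

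Of the 21 blood progenitor genes above the minimum, 11 were within the fold, and those past it went in both directions. *Tal1* had 167 and 128 CPM and was read in 74 cells of each plate after thinning. The values of *Lmo2* were 229 and 256 CPM, those of *Lyl1* 195 and 109, of *Gata2* 60.2 and 35.4, and of *Myb* 70.9 and 56.5. The stem cell factor receptor gene *Kit* (196 and 322 CPM) and the surface marker gene *Cd34* (517 and 405 CPM) were also within the fold, and *Kit* was read in 61 of 77 and 86 of 92 cells. Apart from *Runx1*, *Gfi1b* and *Itga2b*, the calls on plate 5 were *Gata1*, the master regulator of erythroid cells and megakaryocytes (216 and 41.04 CPM, 5.27-fold, 5.04 to 5.51), its cofactor gene *Zfpm1* (38.8 and 12.3 CPM), the signalling gene *Vav1* (73.3 and 4.61 CPM, 15.9-fold, 14.1 to 17.98), *Ikzf1* (46.5 and 21.3 CPM) and *Ikzf2* (47.5 and 22.2 CPM). The calls of *Ikzf1* and *Ikzf2* were lost under several alternatives, such as the mean of CPM per cell. *Mecom* (2.00 and 28.3 CPM) and *Gfi1* (2.12 and 12.3 CPM), which encode transcription factors of blood stem cells and emerging haematopoietic cells, were higher on plate 6. They were read in 20 and 13 of its cells, and in 2 and 3 cells of plate 5. Of the clusters described below, that led by *Fgf3* held 0.227% of the plate 6 *Mecom* reads and 5.08% of the *Gfi1* reads. The cluster led by *Mgst2* held 0.0567% and 1.82%, and the endoderm-led cluster 9.69% and 23.05%. Most plate 6 reads of both genes lay in the endothelial-like cluster.

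The endothelial list had 17 of its 20 genes past the fold on plate 6. *Cdh5*, the gene of the adherens junction protein VE-cadherin, had 35.3 CPM (33.5 to 37.1) on plate 5 and 186 CPM (182 to 189) on plate 6. Its cells ranged from 0 to 276 CPM (median 3.34) on plate 5 and from 0 to 812 (median 144) on plate 6, and 34 of 77 against 77 of 92 thinned cells had a read. *Esam* (228 and 833 CPM), *Egfl7* (167 and 730), *Tie1* (120 and 337), *Ramp2* (66.99 and 330), *Ecscr* (23.9 and 223) and *Cldn5* (41.4 and 217) were likewise past the fold. *Egfl7* was nonetheless read in 76 of 77 plate 5 cells and 89 of 92 plate 6 cells. *Pecam1* (111 and 192 CPM), *Plvap* (134 and 158) and *Eng* (94.6 and 177) were within the fold. The largest log2 ratio of the list toward plate 6 (-6.95) was that of *Sox7*, which encodes an endothelial SOX factor, with 0.116 CPM (0.0378 to 0.272) on plate 5, read in 2 thinned cells, and 137 CPM (134 to 140) on plate 6, read in 44. In the arterial and Notch group, 5 of the 7 members above the minimum were past the fold on plate 6 and 0 on plate 5, among them *Nrp1* (0.792 and 177 CPM), *Dll4* (3.40 and 64.2), *Notch1* (47.2 and 141) and *Efnb2* (0.466 and 21.003).

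The haemoglobin genes were on the plate 5 side, with all 5 members above the minimum past the fold (median log2 ratio 2.21). *Hbb-bh1*, an embryonic beta-like globin gene, had 3096 CPM (3079 to 3113) on plate 5 and 797 CPM (790 to 804) on plate 6, but was read in similar numbers of thinned cells, 48 and 50. *Hba-x* had 357 and 8.22 CPM, and *Hbb-y* 214 and 45.6, of which 1 cell held 70.5% of the plate 5 reads (63.5 CPM without it). Of 22 erythroid markers, 14 reached the minimum, 11 were past the fold on plate 5 and 0 on plate 6. The erythroid list includes *Hba-x*, *Hbb-y*, *Hbb-bh1*, *Hba-a1* and *Hbb-bt*, so its count overlaps with that of the haemoglobin genes. On plate 5, the megakaryocyte-like cluster described below held 98.0% of the *Hbb-bh1*, 99.97% of the *Hba-x* and 96.9% of the *Hbb-y* reads. *Klf1*, the erythroid transcription factor gene, was low on both plates (10.9 and 2.21 CPM), and *Car2* (514 and 930 CPM) was within the fold.

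Endoderm transcripts came mostly from 3 cells of plate 6. All 8 endoderm members above the minimum were past the fold on plate 6 (median log2 ratio -7.54), such as *Afp*, the alpha-fetoprotein gene (0.163 and 601 CPM), and *Apoa1* (0.0699 and 415 CPM). The list shares *Sox17* with the endothelial list, and the endoderm-led cluster described below held 9.80% of the plate 6 *Sox17* reads. The transferrin gene *Trf* (42.4 and 86.4 CPM) fell within the fold once the highest cell of each plate was left out, with a log2 ratio of -0.39. In these 3 cells the list summed to 32431, 37828 and 44280 CPM and in the fourth cell to 801 CPM, and the 3 held 95.4% of the endoderm reads of the plate. Of the 20 cell cycle genes, 16 were within the fold (median 0.28), with *Ccnd2* (179 and 49.5 CPM) and *Aurka* (391 and 182) higher on plate 5 and *Ccnd1* (2.98 and 79.6) and the cell cycle inhibitor gene *Cdkn1a* (18.3 and 90.2) higher on plate 6. Over all genes tested, 19.1% passed the fold in either direction, so these calls are not read as a result about the cell cycle list. The 7 DNA methylation enzyme genes were all within the fold (median -0.29), *Tet2* narrowly, with a log2 ratio of -0.98 and a plain ratio of 2.01 toward plate 6. *Tet1* had 21.7 and 33.2 CPM, *Tet2* 22.9 and 46.1, and *Tet3* 40.5 and 57.4, which are reads anywhere in these genes and do not give the genotype. Of 12 dissociation stress genes, 5 were higher on plate 5 (*Fos* at 185 and 75.1 CPM, *Fosb*, *Egr1*, *Hspa1a* and *Hspa1b*) and *Atf3* was higher on plate 6 (1.40 and 15.2 CPM). Their part in the lineage differences was not tested.

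Among genes with at least 10 CPM on the higher plate, a read in at least 25% of its cells and no cell with over 20% of the reads, the 12 with the largest ratio toward plate 5 held 4 members of the megakaryocyte list and 1 of the myeloid list. They were the urea transporter gene *Slc14a1* (137 and 0.0801 CPM), *Thbs1*, *Rgs18*, *Btk*, *Treml1*, *Tubb1*, *Il10ra* (92.2 and 1.41 CPM), *Fyb* (61.3 and 0.625), the leukocyte integrin gene *Itgb2* (56.4 and 0.513), *Spi1*, *Sardh* (35.3 and 0.336) and *Gp5*. *Rgs18*, a regulator of G protein signalling of the platelet lineage, had 94.9 CPM on plate 5, with reads in 53 thinned cells, and 0 reads on plate 6. This was at least 1975-fold higher with 3 counts set for the whole of plate 6, and the exact lower limit of the ratio was 1605. *Btk*, the gene of the B cell and myeloid tyrosine kinase, had 121 and 0.336 CPM and was read in 62 thinned cells of plate 5 and in 1 of plate 6. That plate 6 cell was 1 of the 2 without *Rps3a3* reads, and 0 *Btk* reads were left on plate 6 without them. On plate 5, the megakaryocyte-like cluster described below held 65.4% of the *Btk* reads. It also held 69.3% of the *Itgb2*, 75.5% of the *Fyb* and 94.7% of the *Il10ra* reads, but 5.56% of the *Spi1* reads.

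Toward plate 6, the 12 genes held endothelial genes (*Sox7*, *Emcn* at 0.838 and 61.4 CPM, and *Pcdh12* at 0.0233 and 34.5), imprinted transcripts and ribosomal pseudogenes. The imprinted genes were *Plagl1* (0.792 and 159 CPM), *Meg3* (0.862 and 68.2) and *Rian* (0.769 and 73.4), the last 2 from the same imprinted cluster. The pseudogenes were *Rps3a3*, with reads in 21 thinned cells of plate 5 and 90 of plate 6, and *Rps13-ps1* (1.98 and 126 CPM, in 21 and 90 cells), and the predicted gene *Gm11942* behaved alike (2.56 and 177 CPM, in 13 and 91 cells). How reads that map to several copies were counted is not stated, so the levels of such copies are uncertain. *Dppa4*, a gene of pluripotent cells, had 0 reads on plate 5 and 70.2 CPM on plate 6, where 55 thinned cells had a read. This was at least 1004-fold higher with 3 counts set for plate 5, and the exact lower limit was 817. Its levels on the other plates were 0.428 to 1.31 CPM on plates 1, 3 and 7 and 18.4 to 74.2 CPM on plates 2, 4 and 8, the same order of odd and even plates as for *Rps3a3*. The remaining genes were *Sema6d* (0.396 and 55.6 CPM) and *Gdpd5* (0.419 and 45.3 CPM).

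Clustered together, the cells of plates 5 and 6 fell into 6 clusters, of which only 1 held more than 1 cell of each plate. A cluster mostly of 1 plate may be that plate rather than a type of cell, so the shares below describe the wells. Values of genes that define or name a cluster are description and not results. The megakaryocyte-like cluster held 38 plate 5 cells (49.4%, 37.8 to 60.995) and 0 of 92 plate 6 cells, for which the limit of 3 counts gives 3.26% and the exact upper limit 3.93%. The share was 28.6% in 4 alternatives, which were a higher resolution, more variable genes, centring within plates and each plate clustered alone. The cluster counted 20 of 24 megakaryocyte markers and also 14 of 22 erythroid markers, the second class by the naming rule. Its leading genes included *Hba-x* and *Hbb-y* beside *Thbs1*, *Pf4* and *Tubb1*. The myeloid-like cluster held 25 plate 5 cells (32.5%, 22.2 to 44.1) and 1 plate 6 cell (1.09%), which was 1 of the 2 cells without *Rps3a3* reads, so that 0 plate 6 cells are left without them. It counted 15 of 26 myeloid markers. The endothelial-like cluster held 38 plate 6 cells (41.3%, 31.1 to 52.1) and 1 plate 5 cell, but its plate 6 share was 17.4% with all E8.5 plates clustered together and 0% at a clustering resolution of 0.5. A cluster of 21 plate 6 cells (22.8%) was endoderm-like by the naming rule, but 3 of its cells carried the endoderm reads, and it is called endoderm-led here.

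The other 2 clusters were left unnamed by a demand that at least 25% of the markers of a list count, a demand set after the clusters were seen. The first was led by *Mgst2*, *Rhox5* and *Romo1*, held 12 plate 5 cells (15.6%) and 11 plate 6 cells (11.96%), and had a median of 268805 reads per cell, the lowest of the 6. Its plate 6 cells all lay in well columns 7 to 12 of the plate, with 0 of 46 cells of columns 1 to 6, and its plate 5 cells were split 4 and 8. The second was led by *Fgf3*, *Reln*, *Nrip3* and *Gad2* and held 1 plate 5 cell (1.30%) and 21 plate 6 cells (22.8%). Without the demand, the first was myeloid-like (3 of 26 markers counted) and the second erythroid-like (3 of 22, *Epor*, *Epb42* and *Car2*). No cluster was blood progenitor-like. The cells of all E8.5 plates were also clustered together. In that clustering, 20 of the 21 plate 6 cells of this second cluster and its plate 5 cell became blood progenitor-like. Of the 12 plate 5 cells of the first, 11 became myeloid-like. So did the 1 plate 5 cell of the endothelial-like cluster, which brought the myeloid-like class to 37 plate 5 cells. Of the 38 endothelial-like cells of plate 6, 16 kept that name and 22 fell into an unnamed cluster. The 38 megakaryocyte-like cells were the same. The name blood progenitor therefore depended on which cells were clustered.

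**Figure D3:**
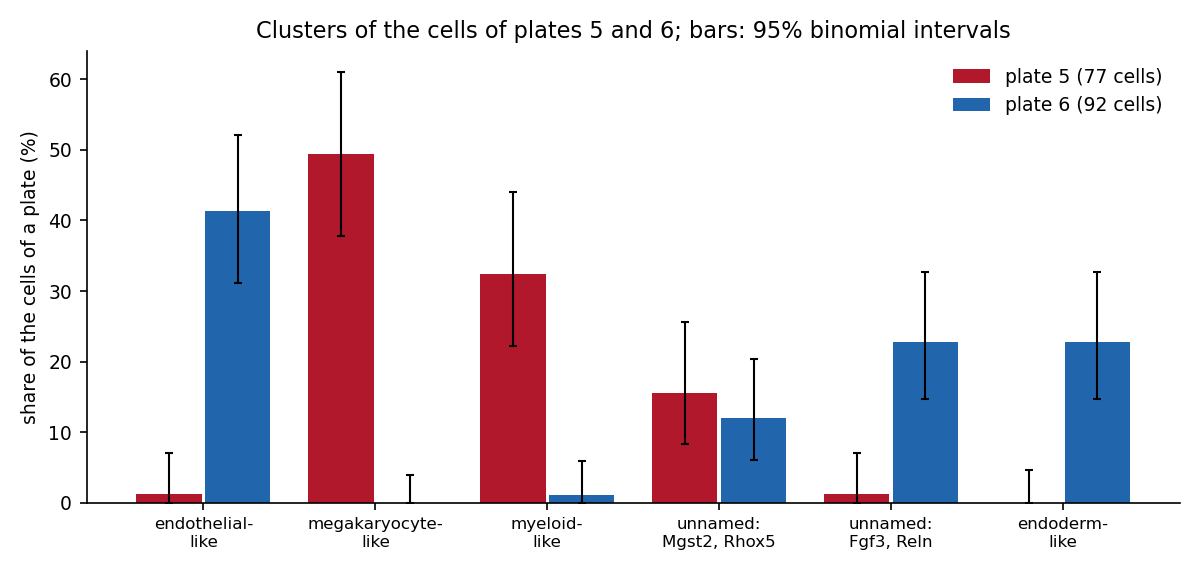
Bars give the share of the cells of a plate (y axis, %) in each of the 6 clusters (x axis), in red for plate 5 (77 cells) and in blue for plate 6 (92 cells), with exact 95% binomial intervals that cover counting error only. Megakaryocyte-like (49.4%) and myeloid-like (32.5%) cells make up most of plate 5, endothelial-like cells (41.3%) are the largest group of plate 6, and only the cluster led by *Mgst2* and *Rhox5* has similar shares on both.

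Counting list members with a read in each thinned cell set the plates apart without the use of clusters. Plate 5 cells had 6 to 23 megakaryocyte members (median 14) and plate 6 cells 0 to 16 (median 6). For myeloid members the ranges were 1 to 20 (median 7) and 0 to 13 (median 3), for blood progenitor members 8 to 18 (median 15) and 2 to 17 (median 12), and for endothelial members 2 to 18 (median 8) and 1 to 20 (median 14). At least 8 megakaryocyte members were read in 75 plate 5 cells and 33 plate 6 cells, and at least 8 myeloid members in 36 and 3. The plate 6 cell with 13 myeloid members, among those 3, was 1 of the 2 without *Rps3a3* reads, and the next highest had 9. The ranges overlapped for all 4 lists.

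Reads of megakaryocyte and myeloid markers occurred together in some plate 5 cells. *Pf4* and *Spi1* were both read in 25 of its thinned cells (32.5%, 22.2 to 44.1), *Pf4* alone in 20, *Spi1* alone in 25 and neither in 7. On plate 6 both were read in 0 cells, each alone in 7 and neither in 78. These counts rest on any read. *Pf4* had 1353 CPM in the megakaryocyte-like and 18.8 CPM in the myeloid-like cells of plate 5, and *Spi1* had 26.1 and 401 CPM. These genes and the megakaryocyte and myeloid lists counted below were used to name the clusters. Their differences between the megakaryocyte-like and myeloid-like clusters are therefore tied to the naming and are description only. Cells of the megakaryocyte-like cluster had 9 to 23 megakaryocyte members (median 18.5) and 1 to 9 myeloid members (median 4.5). The 25 plate 5 cells of the myeloid-like cluster had 8 to 15 megakaryocyte members (median 10) and 8 to 20 myeloid members (median 12). Such numbers of megakaryocyte members were also seen in plate 6 cells outside these clusters, with 5 to 16 (median 9) in the cluster led by *Fgf3* and 1 to 10 (median 6) in the endothelial-like cluster.

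**Figure D4:**
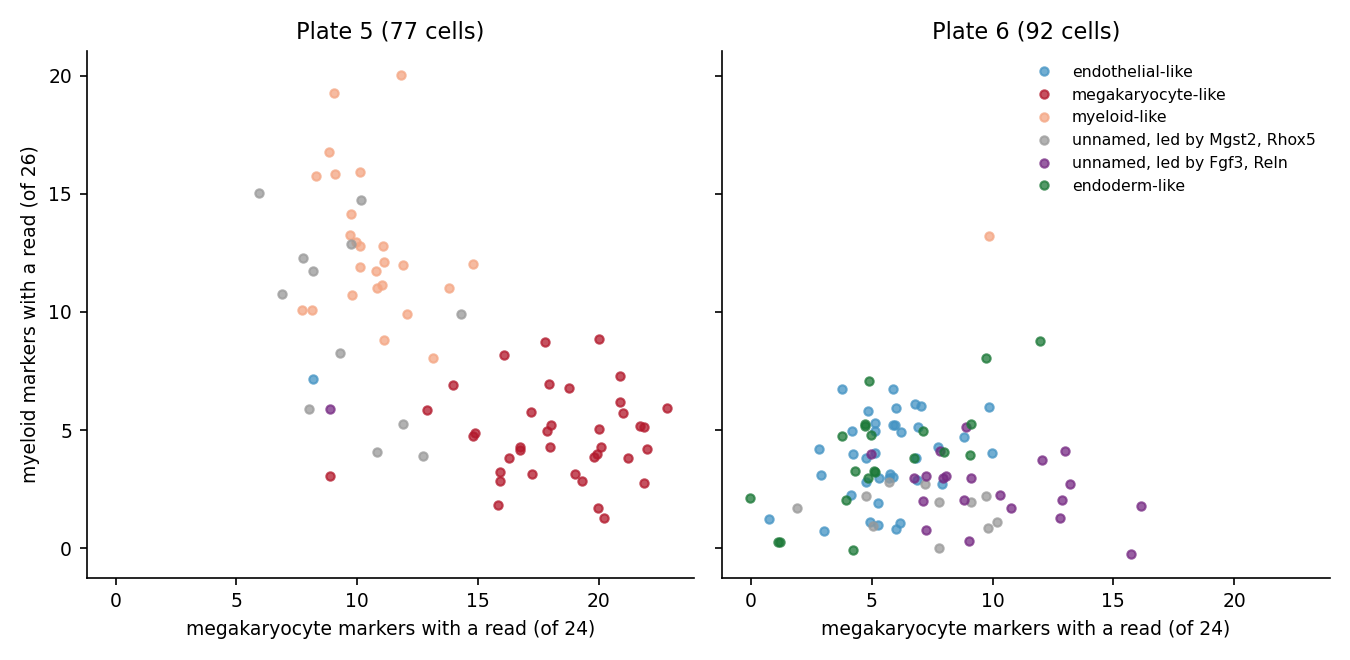
Each point is a cell, placed by the number of the 24 megakaryocyte markers (x axis) and of the 26 myeloid markers (y axis) with a read after thinning to 100000 reads, with a small random offset and coloured by cluster, for plate 5 (left) and plate 6 (right). On plate 5 the megakaryocyte-like cells (median 18.5 and 4.5 markers) and the myeloid-like cells (median 10 and 12) form separate arms, and on plate 6 most cells lie near the origin. The clusters were named by these markers, so the separate arms are tied to the naming.

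Within the megakaryocyte-like cluster, embryonic haemoglobin reads varied widely. The summed haemoglobin level ranged from 0 to 90765 CPM (median 2969), and 26 of the 38 cells had at least 1000 CPM. The cells above and below this level, a limit chosen after the values were seen, had pooled levels of 1024 CPM in the 26 and 1220 in the 12 for *Itga2b*, 409 and 383 for *Gata1* and 1249 and 1251 for *Plek*. *Pf4* had 1443 and 1196 CPM, but 554 and 689 without the highest cell of each set. *Thbs1* had 1932 and 470 CPM (1748 and 211 without the highest cells) and *Gp5* 364 and 181 CPM (315 and 143), and *Klf1* was read in 9 of the 26 and 0 of the 12 after thinning. These values describe cells of 1 plate and carry no test.

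The unnamed cluster led by *Mgst2* was the only 1 in which both plates had at least 5 cells, so the plates were also compared inside it, with 4270429 reads on plate 5 and 2459452 on plate 6. Of 8729 genes tested there, 19.9% passed the fold on plate 5 and 21.4% on plate 6. Myeloid members were again on the plate 5 side (12 of 14, 0 on plate 6, median log2 ratio 4.55). Megakaryocyte members were divided, with 6 of 16 (37.5%) past the fold on plate 5 and 2 (12.5%) on plate 6 (median 0.24). The 6 on plate 5 were *Itga2b*, *Pf4* (84.1 and 0.407 CPM), *Gfi1b*, *Plek*, *Treml1* and *Thbs1*. The 2 on plate 6 were *F2rl2* and *Gp5* (0.937 and 15.9 CPM). Within this cluster *Spi1* had 391 CPM on plate 5 and 5.29 on plate 6, *Coro1a* 581.7 and 5.29, and *Rac2* 373 and 0, whereas *F2rl2* had 16.9 and 245 CPM and *Hbb-bh1* 569 and 1813 CPM. The cells of the 2 plates in this cluster may not be of the same kind, since in the clustering of all E8.5 plates 11 of the 12 plate 5 cells were myeloid-like and 1 erythroid-like, while of the 11 plate 6 cells 8 were in an unnamed cluster and 3 were erythroid-like. Endothelial members leaned to plate 6 (9 of 15, against 1 on plate 5), as did erythroid members (7 of 11, against 0).

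Set beside the other 6 plates of the stage, plate 5 had the highest summed level of the megakaryocyte, myeloid and blood progenitor lists. Its megakaryocyte sum was 5837 CPM, followed by 1804 on plate 2 and 1144 on plate 6, and the remaining plates had 37.7 to 639. Its myeloid sum was 2159 CPM, against 356 on plate 6 and 6.95 to 336 elsewhere. The blood progenitor sums were closer, at 4029 on plate 5, 2585 on plate 2 and 2348 on plate 6, with 221 to 1419 on the others. Plate 6 had an endothelial sum of 4400 CPM, near the 4071 of plate 4 and under the 8613 of plate 3, while plate 5 had 1232 and the other 4 plates 79.035 to 153. Haemoglobin was far lower on plates 5 and 6 (3721 and 862 CPM) than on plates 1 and 2 (157874 and 60416 CPM).

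**Figure D5:**
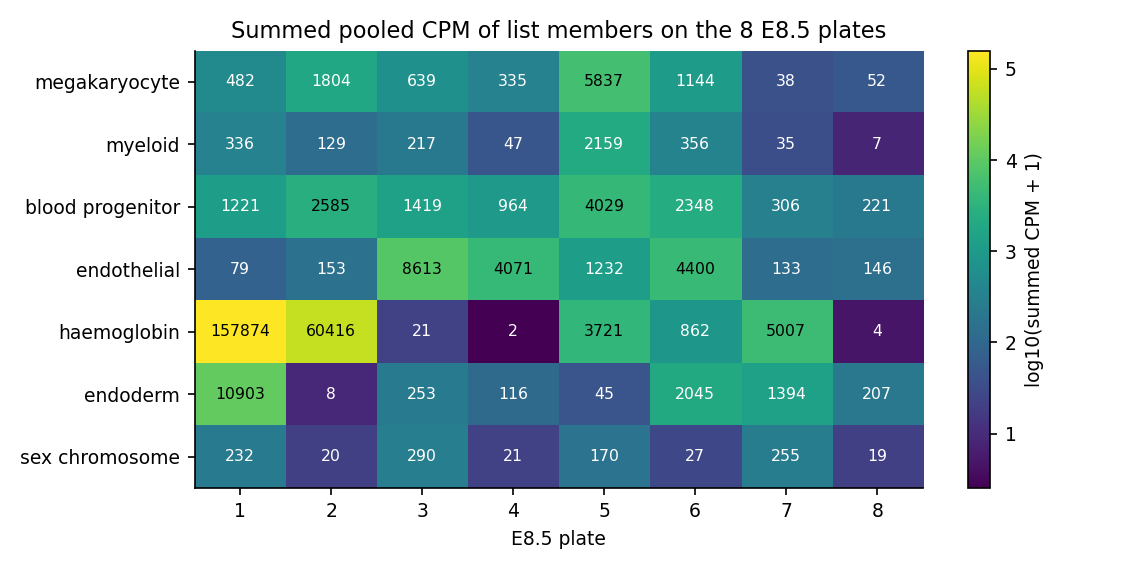
Summed pooled CPM of the members of 7 lists (rows) on the 8 E8.5 plates (columns), printed in each field and coloured by log10(summed CPM + 1). Plate 5 has the highest megakaryocyte (5837), myeloid (2159) and blood progenitor (4029) sums, plate 6 has an endothelial sum (4400) near that of plate 4, and the sex chromosome list is higher on every odd plate than on every even plate.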

How the data were processed

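Sorted single cells were profiled by Smart-seq2, which reads whole transcripts and adds no molecular identifiers. The deposited values are raw counts of reads for every gene in every cell. The authors aligned reads to GRCm38 with HISAT2 2.1.0 and counted them with featureCounts on an Ensembl annotation, per the submitters' processing notes and the methods. Whether strand or multi-mapping reads were considered is not given in the sources used here, so levels of near-identical copies and of overlapping genes are uncertain. There were 55487 genes in 1824 cells, and 55141 gene identifiers had a symbol. No 2 columns of plates 5 and 6 were identical.

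Cells were grouped by the plate in their titles and kept at 100000 reads or more. The marker lists, gene groups and members were chosen with earlier results of these data known. The reads of a plate were summed over its cells and scaled by the plate total (CPM). Genes with at least 10 CPM on either plate were compared by log2 ratio with a pseudocount of 1 CPM, and called at an absolute value of 1. Intervals are exact Poisson (CPM), exact conditional (ratios) and Clopper-Pearson (shares), from scipy 1.17.1. The ratio and naming steps were tested on simulated data. All members of the megakaryocyte, myeloid and blood progenitor lists could be named, up to 6 members of other lists by highest CPM, and the 12 genes with the largest ratio each way. The values of 1 megakaryocyte list member are not reported here. Further endothelial, cell cycle, stress and endoderm members were named after their values were seen.

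For clustering with scanpy 1.11.5, counts were scaled to 10000 per cell and logged, genes in fewer than 5 cells left out, and 2000 variable genes (scaled, limit 10), 30 components, 15 neighbours and Leiden resolution 1 (leidenalg 0.10.2) used. A marker counted with a read in at least 25% of a cluster and 2-fold the mean CPM of other cells, and a name needed 3 markers and 25% of its list. No doublet caller was run. Alternatives were other pooling, depth, scaling (edgeR 4.0.16 and DESeq2 1.42.0 size factors), filters, wells and clustering settings. The lists not described in the report had these counts past the fold on plates 5 and 6. They were haematoendothelial 1 and 3 of 11, mesenchyme 1 and 1 of 3, cardiac 1 and 1 of 2, surface ectoderm 0 and 3 of 3, posterior Hox 0 and 1 of 1 and sex chromosome 4 and 0 of 5 members above the minimum, and no neural or caudal marker reached it.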

Additional observations from a re-analysis of the deposited data

How the results depend on the processing

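The list medians kept their side in all 17 alternatives, from 2.40 to 3.35 for megakaryocyte, 3.35 to 5.18 for myeloid, 0.61 to 0.93 for blood progenitor and -2.41 to -2.04 for endothelial genes. Leaving out the low-depth cluster, the endoderm-led cluster or the 2 plate 6 cells without *Rps3a3*, and dropping the demand on the share of markers, were chosen after seeing the data. Of 1275 values of named genes, 1254 kept their call, 15 lost it (*Clec1b*, *Ikzf1*, *Ikzf2*), 6 gained one (*Mpo*, *Meis1*, *Kit*, *Lcp1*, *Adgrg1*) and 0 reversed. Genes past the fold on plate 5 numbered 1242 with no minimum CPM, 227 with a minimum of 50 CPM and 941 in well columns 7 to 12, and on plate 6 2578 with no minimum and 416 with 50 CPM.

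Shares moved with the clustering. The megakaryocyte-like share of plate 5 was 28.6% at resolution 2, with 4000 variable genes, with centring within plates and with each plate alone. The myeloid-like share of plate 5 was 48.1% with all E8.5 plates together and without the demand on markers, 47.4% under the mitochondrial and ribosomal limits and 0% with each plate alone, and that of plate 6 was 13.04% without the demand and 0% with each plate alone and in well columns 7 to 12. The blood progenitor-like share of plate 6 was 21.7% with all E8.5 plates together. The endothelial-like share of plate 5 was 0% in 11 alternatives, and that of plate 6 was 0% at resolution 0.5 and at 4000 reads, 18.5% without haemoglobin genes, 17.4% with all E8.5 plates, 22.2% under the mitochondrial and ribosomal limits and 23.3% without the deepest 2% of cells. The causes were not tested. No paired analysis was possible because each plate is 1 sample and no result comes from a test. Depth limits calls of genes read in few cells. Where a gene had 0 reads on a plate, 3 counts were set for the whole plate to bound the fold.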
